A study of Mus musculus with 10 samples.

Results

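The measurements concern the early serum response of mouse embryonic fibroblasts as read in 2 RNA pools, the RNA bound to polyribosomes and the whole cytoplasmic RNA. The members are 6 of the 10 arrays of the series, taken by title: serum-treated against serum-starved cells in polyribosome-associated RNA (2 arrays a side) and in cytoplasmic RNA (1 array a side). The other 4 arrays, of undertranslated RNA, were not used. All cells were primary fibroblasts from C57/BLACK6 embryos of age e14.5 and carried 1 disrupted copy of Atf1 (ATF1 +/-), a transcription factor of the CREB family, in the starved and the serum-treated groups alike. Atf1 has no probe set under its own symbol among those used here, so the genotype could not be checked, and no wild-type cells were compared.

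Both groups were held for 48 h in medium with 1% dialysed fetal bovine serum. The serum-treated cells then received 10% serum for 2 h and the starved cells 1% serum for the same 2 h. Polyribosome cultures were given cycloheximide, which halts ribosomes on their mRNA, at 100 ug per ml for 30 min before lysis, and cytoplasmic cultures were not, so that the pool and the drug cannot be told apart. Replicate 2 of both polyribosome groups had also been labelled with 200 uM 4-thiouridine and 1 uCi of tritiated cytidine, and replicate 1 had not. By the labels, gradient fractions of biological and technical replicates were pooled. How many cultures each polyribosome array holds is not clear from them. The p-values below therefore measure the spread between these arrays, which may not be the spread between single cultures.

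Serum removal takes fibroblasts out of the cell cycle into a reversible resting state with a distinct set of growth-arrest transcripts. Serum return delivers growth factors, lipids and coagulation products, and the cells answer with a wave of immediate-early transcription factors, followed by delayed-early genes for secreted factors, proteases and feedback inhibitors. An mRNA on polyribosomes is being translated, so a change there reflects the amount of the mRNA, its loading with ribosomes, or both.

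Median intensity was 19.1 and 19.2 on the cytoplasmic arrays and 45.3 to 54.25 on the polyribosome arrays, and the arrays were brought to 1 distribution by quantile normalization. Between 56.3% and 73.5% of ordinary probe sets lay above background (a probe set is the group of short probes that reads 1 transcript). Background was set by the brightest of 19 control probe sets for bacterial or yeast transcripts. These transcripts were taken to be absent from the samples, which was not checked here. Signal from the 3′ end of Actb exceeded that from its 5′ end 11.5-fold to 21.1-fold, and for Gapdh 6.11-fold to 47.0-fold, with the highest Gapdh ratios on the 2 cytoplasmic arrays. All 18 tested fibroblast markers were above background on all 6 arrays. Intensities below are as deposited, in the order cytoplasmic, polyribosome replicate 1, polyribosome replicate 2; differences are serum minus starved on the log2 scale after normalization, with their standard error (SE, 3 arrays a side).

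In a fit over both pools, serum raised a set of secreted and cell-surface genes. A smaller set of growth-arrest, developmental and metabolic genes fell. The calls rest on that fit, and the pools taken alone are given further below. Of 9316 probe sets tested with limma and Benjamini-Hochberg adjustment, 88 (0.945%) passed an adjusted p of 0.05, 66 of them rises (0.708%) and 22 falls (0.236%), for 52 and 20 named genes. A further 10 rises and 1 fall came from probe sets without a single gene symbol. The median difference over all tested probe sets was -0.01, and 86 of the 88 differed at least 2-fold. In all 88 the difference had 1 sign across the 3 same-pool pairs, as in 3545 of all 9316 tested (38.1%). The 88 were called by a fit to these same pairs. Their sign agreement, and the lack of overlap given for called genes below, is therefore no separate support. The replicate number taken as a block pairs starved with serum polyribosome arrays of the same number, labelled with labelled and unlabelled with unlabelled. With this block 155 passed, 105 rises (1.13%) and 50 falls (0.537%), and 87 of the 88 were among them.

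**Figure D1:**
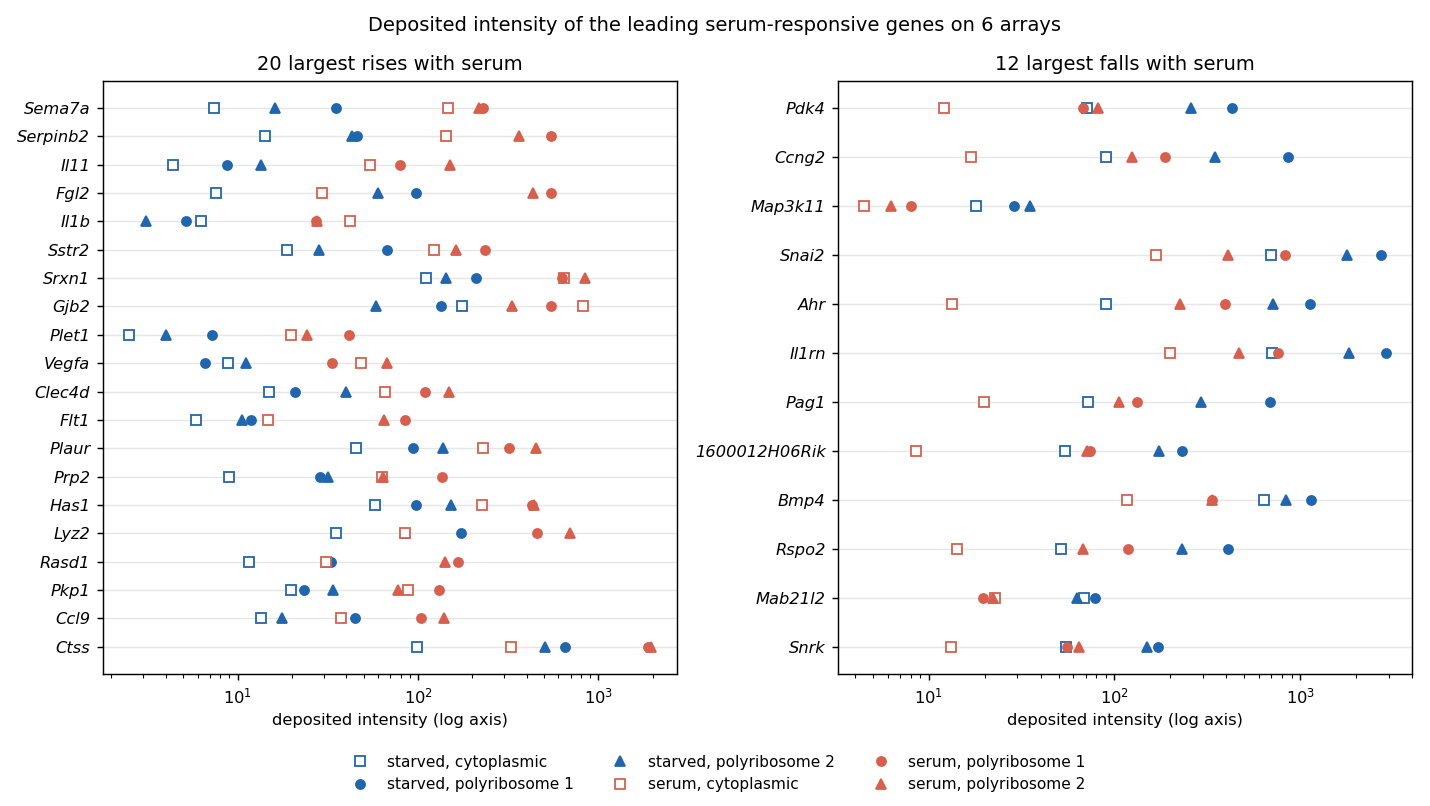
Deposited intensity (log axis) of the 20 genes that rose most and the 12 that fell most, 1 point per array, blue for starved and red for serum, squares for cytoplasmic and filled points for polyribosome RNA. Within each pool every serum point lies right of its starved points for the rises and left of them for the falls, while the pools differ in overall level; Sema7a goes from 7.4 to 146.1 in the cytoplasmic pair.

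The largest rises were in a plasminogen activator inhibitor, a semaphorin and a cytokine. Serpinb2, which encodes plasminogen activator inhibitor 2, read 14.1, 45.8 and 43.1 on the starved arrays and 143, 549 and 365 on the serum arrays. It rose by 3.36 ± 0.22, or 10.3-fold (limma adjusted p = 0.000808), and the 3 serum values lie above all 3 starved values. Sema7a, a membrane-anchored semaphorin that signals through beta1 integrins, read 7.40, 35.1 and 16.2 on the starved arrays and 146, 228 and 218 on the serum arrays. It rose by 3.56 ± 0.31 (11.8-fold, adjusted p = 0.00296); 1 of the starved arrays was not above background, and a dim second probe set gave 0.15 ± 0.47 (adjusted p = 0.936). Il11, a cytokine of the interleukin-6 family, read 4.40, 8.70 and 13.5 on the starved arrays and 54.5, 79.4 and 149.5 on the serum arrays. None of its starved values was above background, so the rise is given as at least 6.39-fold (adjusted p = 0.00495), the serum mean against the lowest signal that can be told from background.

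Several further growth factors and cytokines rose. Vegfa, the main growth factor of blood vessels, read 8.80, 6.60 and 11.2 on the starved arrays and 48.5, 33.4 and 67.0 on the serum arrays and rose by 2.29 ± 0.35 (adjusted p = 0.0228); only 1 starved array was above background. Hbegf, a ligand of the epidermal growth factor receptor, read 104, 391 and 324 on the starved arrays and 417, 999.7 and 950.5 on the serum arrays and rose by 1.80 ± 0.21 (adjusted p = 0.00898). Inhba, the subunit of activin A, read 538, 1344 and 674 on the starved arrays and 2095, 2638 and 3011 on the serum arrays and rose by 1.71 ± 0.20 (adjusted p = 0.00801). The serum values of all 3 genes exceed the starved values of the same pool without overlap, and Inhba and Hbegf were above background on every array.

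Il1b, the pro-inflammatory interleukin, was not above background in any starved array and rose at least 2.43-fold, from 6.30, 5.20 and 3.10 to 42.2, 27.1 and 27.7. Its antagonist Il1rn moved the other way and is described with the falls. Csf1, the growth factor of macrophages, read 884, 2064 and 1659.9 on the starved arrays and 2209.8, 4826 and 2693 on the serum arrays and rose by 1.12 ± 0.19 (adjusted p = 0.0334), a smaller change on a bright probe set. Nppb, which encodes a natriuretic peptide, rose by 1.58 ± 0.24, and the chemokine Ccl9 by 1.88 ± 0.31. Fgl2, a fibrinogen-like secreted protein, read 7.60, 97.8 and 59.9 on the starved arrays and 29.5, 548 and 434 on the serum arrays and rose by 2.46 ± 0.25 (adjusted p = 0.00495); its cytoplasmic starved value was below background.

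Of the list of secreted and extracellular early-response factors, 34 of 47 genes were tested; 11 rose, none fell and 23 did not pass. Its median difference was 0.44, against -0.02 over all 6799 named genes tested, of which 50 (0.735%) rose and 20 (0.294%) fell by their brightest probe set. The 11 were Serpinb2, Il11, Il1b, Vegfa, Plaur, Has1, Hbegf, Inhba, Has2, Csf1 and Timp1. Some members of the same list gave values near or below 0 without passing: Ccl2, a monocyte chemokine, gave 0.07 ± 0.13 and Cxcl1, a neutrophil chemokine, -1.04 ± 0.29.

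The urokinase system and matrix protease inhibitors were represented by Plaur, Serpinb2 and Timp1. Plaur, the receptor that holds urokinase at the cell surface, read 45.6, 93.7 and 138 on the starved arrays and 229, 320.3 and 451 on the serum arrays and rose by 2.07 ± 0.30 (adjusted p = 0.0174). Timp1, an inhibitor of matrix metalloproteinases, read 1594, 2431 and 2855 on the starved arrays and 3614, 6216 and 5061 on the serum arrays and rose by 1.10 ± 0.17 (adjusted p = 0.0233). These were the 3 rises among 26 tested members of the list of matrix proteases and their inhibitors, which had no fall and a median of 0.10. The share of rises over all named genes tested was 0.735%. Urokinase itself, Plau, gave 0.09 ± 0.27. Tgfbi, a matrix protein induced by TGF-beta, rose by 1.71 ± 0.21, and the matrilin gene Matn4 by 1.31 ± 0.24.

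Genes of hyaluronan synthesis rose as well, a grouping chosen after their values were seen. Has1, a hyaluronan synthase, read 57.8, 97.9 and 152 on the starved arrays and 225, 430.4 and 440.2 on the serum arrays and rose by 2.01 ± 0.27 (adjusted p = 0.0141). Has2, the other synthase on the array with a call, read 109, 572 and 312 on the starved arrays and 208, 1582 and 931 on the serum arrays and rose by 1.43 ± 0.25 (adjusted p = 0.0345). Gfpt2, which controls entry into the hexosamine pathway that supplies a hyaluronan precursor, read 58.9, 46.9 and 50.1 on the starved arrays and 209.5, 185 and 96.2 on the serum arrays and rose by 1.69 ± 0.28 (adjusted p = 0.0299). For all 3 the serum value exceeds its starved partner in each pair, by 0.93 to 2.32 on the log2 scale.

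Among transcription factors and feedback regulators the rises were fewer. Fosl1, an AP-1 subunit of the delayed phase, read 98.1, 82.7 and 75.4 on the starved arrays and 327, 178 and 169 on the serum arrays and rose by 1.48 ± 0.23 (adjusted p = 0.0235). Cebpb, a leucine zipper factor of inflammatory and growth responses, read 782, 187 and 264 on the starved arrays and 1394, 736 and 744 on the serum arrays and rose by 1.49 ± 0.28 (adjusted p = 0.0480). These were the only 2 rises, with no fall, among 30 tested immediate-early transcription factors (median 0.27), against 0.735% over all named genes tested. Gadd45b, a stress-kinase regulator, read 891, 1908 and 1792 on the starved arrays and 2282, 3476 and 4160.3 on the serum arrays and rose by 1.17 ± 0.16 (adjusted p = 0.0157), and a second probe set gave 1.36 ± 0.18. Rasd1, a Ras-related GTPase, read 11.6, 32.9 and 30.9 on the starved arrays and 31.0, 167 and 142 on the serum arrays and rose by 1.98 ± 0.25 (adjusted p = 0.0119).

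Sphk1, which makes sphingosine 1-phosphate, rose by 1.68 ± 0.31, and Rgs16, which turns off G-protein signals, by 0.94 ± 0.17. With Gadd45b and Rasd1 they are the 4 rises among 34 tested feedback regulators, which had no fall and a median of 0.25. Rises made up 0.735% of all named genes tested. Socs3, an inhibitor of cytokine receptors, rose only on its dimmer probe set, at 1.37 ± 0.24 (adjusted p = 0.0324); the brighter one gave 1.06 ± 0.26 (adjusted p = 0.126). Spsb1, an adaptor of a ubiquitin ligase, gave 1.41 and 1.40 in its 2 probe sets, and the deubiquitinase gene Usp2 rose by 1.45 ± 0.25 on 1 probe set (adjusted p = 0.0352). Its other probe set, also above background on all 6 arrays, gave 0.72 ± 0.24 without passing (adjusted p = 0.277).

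Of the classical early genes, Fos, Egr1 (on its brighter probe set) and Dusp1 differed little at 2 h. The 4 others given here had larger differences that did not pass. Fos, the first AP-1 subunit to be induced, read 2329, 5009 and 4862 on the starved arrays and 2017, 5633 and 3950 on the serum arrays, a difference of -0.14 ± 0.15 (adjusted p = 0.768). Egr1, an early zinc finger factor with a dimmer second probe set at -1.70 ± 0.53 (adjusted p = 0.235), read 3262, 8063 and 5248 on the starved arrays and 3021, 8583 and 5444 on the serum arrays, a difference of -0.04 ± 0.18 (adjusted p = 0.958) that turned positive without scaling and with median centring. The polyribosome values of the starved and the serum arrays overlap for both genes. Dusp1, a phosphatase that switches off MAP kinases, gave 0.06 ± 0.14. Junb gave 0.87 ± 0.24, Myc 0.84 ± 0.28, Ptgs2, the inducible prostaglandin synthase, 0.74 ± 0.17 and Odc1, which makes polyamines, 0.90 ± 0.20. None of these 4 passed (limma adjusted p = 0.181, 0.274, 0.106 and 0.0911). Odc1 and a second Junb probe set, which gave 1.02 ± 0.22, passed with the replicate block (limma adjusted p = 0.04998 and 0.0464).

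Several surface and junction proteins and 1 redox enzyme rose strongly. Srxn1, sulfiredoxin, which repairs oxidised peroxiredoxins, read 110.4, 210.3 and 143 on the starved arrays and 641, 627 and 837 on the serum arrays and rose by 2.36 ± 0.24 (adjusted p = 0.00495). It was the only member past the test among 35 tested Nrf2 and oxidative stress genes, whose median was -0.02. Rises made up 0.735% of all named genes tested. The dimmer Srxn1 probe set gave -0.31 ± 0.30. Gjb2, connexin 26, a gap junction subunit, read 176, 133 and 58.6 on the starved arrays and 818, 548 and 333 on the serum arrays and rose by 2.34 ± 0.28 (adjusted p = 0.00898), the only 1 of 6 tested connexins to pass. Pkp1, a desmosomal plaque protein, rose by 1.98 ± 0.29, and a dimmer probe set gave 1.80 ± 0.56 without passing.

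Receptors rose too. Sstr2, a somatostatin receptor, read 18.8, 67.2 and 28.1 on the starved arrays and 122, 236 and 163 on the serum arrays and rose by 2.41 ± 0.30 (adjusted p = 0.0110); 2 further probe sets gave 1.36 ± 0.36 and 1.39 ± 0.47 without passing. Flt1, a receptor of Vegfa, was not above background in any starved array on the probe set that passed and rose at least 3.16-fold. A second Flt1 probe set, above background on all 6 arrays, gave 0.23 ± 0.28 (adjusted p = 0.802), so the 2 probe sets disagree. The surface proteins Folr1, a folate receptor, and Plet1 rose at least 2.83-fold and at least 2.03-fold from starved values not above background. Il15ra, the interleukin-15 receptor chain, rose by 1.24 ± 0.23, and Csf2rb2, a chain of the interleukin-3 receptor, by 1.75 ± 0.25.

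A further group of rises consists of genes known from macrophages. Of 25 macrophage markers, 20 were tested, and the differences of all 20 were above 0, against 47.9% over all named genes tested. Of the 20, 8 rose (Clec4d, Lyz2, Ctss, Tyrobp, Laptm5, Csf1r, C1qc and Cd14), none fell and 12 did not pass. Over all named genes tested 0.735% rose. The median of the 20 markers was 1.23, and 12 of them were above background on all 6 arrays. Ctss, the lysosomal protease cathepsin S, read 98.8, 655 and 507 on the starved arrays and 326, 1875 and 1953 on the serum arrays and rose by 1.84 ± 0.18 (adjusted p = 0.00495). Csf1r, the receptor of Csf1, read 26.2, 32.6 and 35.4 on the starved arrays and 55.3, 106 and 118 on the serum arrays and rose by 1.55 ± 0.23 (adjusted p = 0.0207), while its other probe set gave 0.10 ± 0.28. The serum values of Ctss and Csf1r lie above the starved values within each pool.

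Lyz2, lysozyme, read 35.2, 174 and 84.3 on the starved arrays and 84.8, 454 and 693 on the serum arrays and rose by 1.99 ± 0.31; its second, dim probe set gave 0.25 ± 0.30. Laptm5, a lysosomal membrane protein of blood cells, rose by 1.63 ± 0.28 on its brighter probe set and 2.87 ± 0.30 on the other. The lectin gene Clec4d rose by 2.15 ± 0.30, the adaptor gene Tyrobp by 1.74 ± 0.29, the complement gene C1qc by 1.35 ± 0.23 and the endotoxin co-receptor gene Cd14 by 1.27 ± 0.21. Among the leukocyte markers, Ptprc, Itgam, Aif1, Fcer1g and Fcgr2b were too dim to be tested, and Adgre1 gave 1.18 ± 0.42 without passing.

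The summed macrophage-marker intensity was 545 on the starved cytoplasmic array against 1183 on the serum one, 2100 against 5045 in polyribosome replicate 1, and 1729 against 6318 in replicate 2. The sum for 18 fibroblast markers was 20058 against 18251, 36280 against 41127, and 34604 against 39300 (deposited values, starved against serum). No fibroblast marker passed in either direction, and their median was 0.12. In bulk RNA, more cells of a type and more RNA per cell cannot be told apart. The part of macrophage RNA in the other rises, such as Il1b, Ccl9, Fgl2 and Csf2rb2, was not tested. None of the other marker lists gave a call by its brightest probe sets: endothelial (6 tested), epithelial (9), muscle (10), neural (10), lymphoid (4), erythroid (6), mast cell and granulocyte (5) and adipocyte (6).

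**Figure D2:**
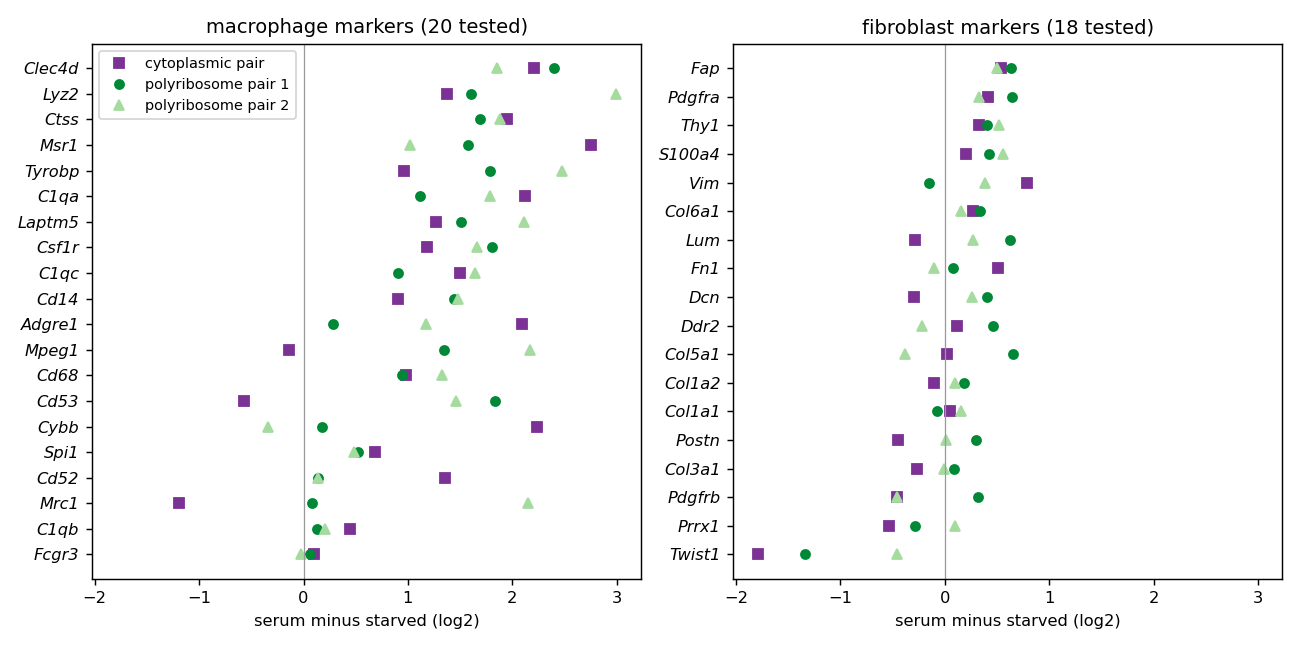
Serum minus starved log2 difference of each tested macrophage marker (left, 20 genes) and fibroblast marker (right, 18 genes) for the cytoplasmic pair (squares) and for polyribosome pairs 1 and 2 (circles, triangles). Most macrophage markers lie right of 0 in all 3 pairs (15 of 20), with a median of 1.23, and the fibroblast markers scatter around 0 with a median of 0.12.

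The promoters of the genes that rose were read from RefSeq windows (GRCm38.p6) of 250 bases before to 50 bases after a transcription start; 40 of the 52 rises, 15 of the 20 falls and 5484 of the 6799 named genes tested have one. The letters TGANTCA, the AP-1 site, which reads the same way on both strands, occur in a window of 11 of the 40 rises (27.5%), 1 of the 15 falls (6.67%, Il1rn) and 7.09% of all tested genes. The 11 are Ccl9, Ctla2b, Fgl2, Gfpt2, Il11, Il15ra, Plaur, Plet1, Serpinb2, Sphk1 and Srxn1. The letters TGACGTCA, the cAMP response element that factors of the CREB and ATF family bind, occur in 3 of 40 rises (7.5%), none of the 15 falls and 3.34% of all tested genes. Matches were sought on both strands and are descriptions of the sequence, with no test and no evidence here of binding. Stretches around the match are shown for 5 AP-1 genes and the 3 genes with a cAMP response element, 5′ to 3′ on the gene's strand, with the match in capitals and bases counted from the transcription start.
Serpinb2 (chr1:107511309-107511355, + strand, bases -114 to -68): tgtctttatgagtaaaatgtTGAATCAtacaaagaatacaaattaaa
Il11 (chr7:4778213-4778259, - strand, bases -118 to -72): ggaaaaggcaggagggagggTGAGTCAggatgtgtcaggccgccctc
Fgl2 (chr5:21372637-21372672, + strand, bases -36 to -1): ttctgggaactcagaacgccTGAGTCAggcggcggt
Plaur (chr7:24462394-24462440, + strand, bases -89 to -43): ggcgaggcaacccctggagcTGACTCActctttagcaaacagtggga
Srxn1 (chr2:152105402-152105505, + strand, bases -122 to -19): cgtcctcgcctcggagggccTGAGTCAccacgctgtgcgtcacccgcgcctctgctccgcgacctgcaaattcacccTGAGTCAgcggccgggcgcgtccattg
Has1 (chr17:17855244-17855291, - strand, bases -103 to -56): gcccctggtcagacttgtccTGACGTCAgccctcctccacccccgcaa
Sstr2 (chr11:113619249-113619296, + strand, bases -78 to -31): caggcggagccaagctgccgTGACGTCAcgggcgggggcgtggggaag
Flt1 (chr5:147726065-147726112, - strand, bases -101 to -54): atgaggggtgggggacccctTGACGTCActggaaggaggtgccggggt
The Srxn1 stretch holds 2 AP-1 matches, and each of the others holds 1 match.

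The letters of the TATA box and of the C/EBP site were also held by a larger share of the rises than of all tested genes. Matches were counted wherever they lay in the window, such as TATA letters at base -31 for Nppb and -233 for Ctss. TATAAA was in 13 of 40 rises (32.5%), 2 of 15 falls (13.3%) and 11% of tested genes. TTGCNNAA, a C/EBP site, was in 7 of 40 rises (17.5%), none of the falls and 10.6% of tested genes. The NF-kappaB motif was in 2 of 40 rises (5.0%), 4 of 15 falls (26.7%) and 6.31% of tested genes. No rise or fall held the CArG box of serum response factor in these windows, which 1.9% of tested genes did. GTAAACA, the forkhead site, was in 1 of 40 rises (2.5%), none of the 15 falls and 3.14% of tested genes; GCGTG, the core bound by the aryl hydrocarbon receptor, was in 42.5%, 60.0% and 55.0%, and the E-box CACGTG in 5.0%, 13.3% and 12%.

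Pdk4 and Ccng2, genes of the starved state, had the largest falls, while Gas1 and Bcl6 fell less than several genes described further below. Pdk4, the kinase that shuts off pyruvate dehydrogenase in starvation, read 71.1, 428 and 257 on the starved arrays and 12.1, 67.9 and 81.7 on the serum arrays and fell by 2.13 ± 0.24 (4.39-fold, adjusted p = 0.00801). Ccng2, an atypical cyclin of resting cells, read 90.1, 862 and 347 on the starved arrays and 16.8, 187 and 124 on the serum arrays and fell by 1.89 ± 0.31 (adjusted p = 0.0298). Gas1, a growth-arrest-specific surface protein, read 1707, 5256 and 3722 on the starved arrays and 458, 2201 and 1550 on the serum arrays and fell by 1.44 ± 0.17 (adjusted p = 0.00801). Within each pool the serum values of these genes lie below the starved values, and across the pools they overlap.

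Bcl6, a transcriptional repressor, read 250.1, 782 and 342 on the starved arrays and 63.4, 221 and 163 on the serum arrays and fell by 1.47 ± 0.28 (adjusted p = 0.0497, close to the threshold). These 4 were the calls among 24 tested starvation and FoxO-linked genes, with no rise and a median of -0.45. Falls made up 0.294% of all named genes tested. Of the 24 differences, 19 were below 0, against 3543 of all 6799 named genes tested. Txnip and Sesn1, members of the same list, gave -1.06 ± 0.20 and -1.13 ± 0.25 (adjusted p = 0.0523 and 0.0855) and passed only with the replicate block (adjusted p = 0.0357 and 0.0378). A second Txnip probe set gave 0.04 ± 0.22.

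Transcripts of secreted developmental signals fell. Bmp4, a bone morphogenetic protein, read 641, 1147 and 834 on the starved arrays and 117, 333 and 334 on the serum arrays and fell by 1.72 ± 0.25 (adjusted p = 0.0174), and its second probe set fell by 1.29 ± 0.23 (adjusted p = 0.0345). Rspo2, a secreted enhancer of Wnt signalling, read 51.6, 408 and 232 on the starved arrays and 14.2, 118 and 67.5 on the serum arrays and fell by 1.65 ± 0.26 (adjusted p = 0.0243). Penk, the enkephalin precursor, read 1586, 3492 and 2606 on the starved arrays and 655, 1502 and 1211 on the serum arrays and fell by 1.11 ± 0.14 (adjusted p = 0.0124), about equally in the 3 pairs (-1.10, -1.12 and -1.13). A dimmer Penk probe set gave -0.71 ± 0.26 without passing (adjusted p = 0.342). In the list of BMP, Id and TGF-beta signalling genes, 27 were tested, Bmp4 fell and Inhba and Tgfbi rose (median 0.24). Rspo2 was the only call among 26 tested Wnt pathway genes (median 0.12). Among all named genes tested, 0.735% rose and 0.294% fell.

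Il1rn, the interleukin-1 receptor antagonist, read 709, 2907 and 1823 on the starved arrays and 199, 759.9 and 470.5 on the serum arrays and fell by 1.81 ± 0.21 (3.51-fold, adjusted p = 0.00801). All of its serum values lie below the starved values of the same pool. In the list of NF-kappaB pathway genes, 27 were tested, Csf1 and Il1b rose, Il1rn fell, and the median was 0.24. Among all named genes tested, 0.735% rose and 0.294% fell.

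Snai2, which encodes the mesenchymal zinc finger repressor Slug, read 695, 2706 and 1784 on the starved arrays and 167, 832 and 406 on the serum arrays and fell by 1.86 ± 0.25 (3.64-fold, adjusted p = 0.0141). It was the only call among 27 tested mesenchymal transcription factors, against 0.294% falls over all named genes tested. The 27 factors had a median of -0.35 and 19 differences below 0, against 3543 of all 6799 named genes tested. Twist1, a basic helix-loop-helix factor of the mesenchyme, gave -1.19 ± 0.32 (adjusted p = 0.167), and Runx1 gave 1.48 ± 0.37 (adjusted p = 0.145, and 0.0182 with the replicate block). Mab21l2, a gene of eye and body wall development, fell by 1.54 ± 0.22, and the zinc finger gene Zscan21 by 1.04 ± 0.19.

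The aryl hydrocarbon receptor and 1 of its targets fell. Ahr, a ligand-activated transcription factor, read 90.0, 1131 and 714 on the starved arrays and 13.4, 391 and 226 on the serum arrays and fell by 1.85 ± 0.32 (adjusted p = 0.0324). Cyp1b1, a cytochrome P450 that the receptor induces, read 771, 3649.8 and 2763 on the starved arrays and 303, 1809 and 1533 on the serum arrays and fell by 1.03 ± 0.16 (adjusted p = 0.0207). These were the 2 falls among 9 tested members of that list (median -0.08), against 0.294% over all named genes tested. Cyp1a1 gave 1.18 ± 0.51 with 1 of 3 starved arrays above background. The serum values of Cyp1b1 and Ahr lie below the starved values within each pool.

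The remaining falls have varied roles. Pag1, a membrane adaptor that restrains Src kinases, fell by 1.75 ± 0.26; Lpin1, a phosphatidate phosphatase, by 1.36 ± 0.25; Snrk, a kinase related to AMPK, by 1.50 ± 0.24. Rab9, a GTPase of late endosomes, fell by 1.41 ± 0.21, Pnrc2, a factor of mRNA decay, by 1.35 ± 0.24, and the unnamed transcript 1600012H06Rik by 1.73 ± 0.30. Map3k11, a kinase upstream of JNK, was not above background in any serum array and fell at least 1.84-fold (adjusted p = 0.0480, and 0.0583 with the replicate block).

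The remaining rises are given by their differences. Lst1, a leukocyte transcript, rose by 1.68 ± 0.23, Cytip, a cytohesin partner, by 1.56 ± 0.23, Ctla2b, a protease inhibitor, by 1.64 ± 0.22, and Car2, a carbonic anhydrase, by 1.36 ± 0.25. Efhd2, a calcium-binding protein, rose by 1.55 ± 0.28, and the transporter-like genes Slc35e4 and Slc66a2 by 1.54 ± 0.24 and 1.08 ± 0.19. Prp2, a proline-rich protein gene, rose by 2.03 ± 0.34, with 0.04 ± 0.28 on a second probe set. A dimmer Cytip probe set gave 1.25 ± 0.35 without passing.

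Many of the pathway lists gave no call in either direction, against 0.735% rises and 0.294% falls over all named genes tested. Cholesterol and fatty acid synthesis (23 tested) had 21 differences above 0, against 47.9% over all named genes tested. Its median was 0.37, with no call. Actin and serum response factor targets (37, median 0.25), ribosome biogenesis (44, 0.21), endoplasmic reticulum chaperones (22, 0.17), interferon-stimulated genes (29, 0.16), and matrix proteins and collagens (45, 0.15) also gave none. Nor did cytoplasmic ribosomal proteins (28, 0.03), mitosis and replication (40, 0.02), translation factors (41, 0.0), proteasome subunits (39, -0.04), cell cycle entry genes (28, -0.05), p53 targets (20, -0.27) or prostaglandin genes (17, 0.06). The lists of glycolysis and hypoxia (29, median -0.004), integrated stress response (32, -0.07), CREB/ATF family and cAMP-responsive genes (26, 0.24) and semaphorins and plexins (20, 0.17) gave 1 rise each, which were Vegfa, Cebpb, Inhba and Sema7a in that order. Atf4, the stress response factor, gave -0.24 ± 0.17; Actb gave 0.17 ± 0.18 on its brighter probe set and -0.36 ± 0.42 on the other, and Eef1a1, an elongation factor whose rank was the same on every array, 0.00 ± 0.09.

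**Figure D3:**
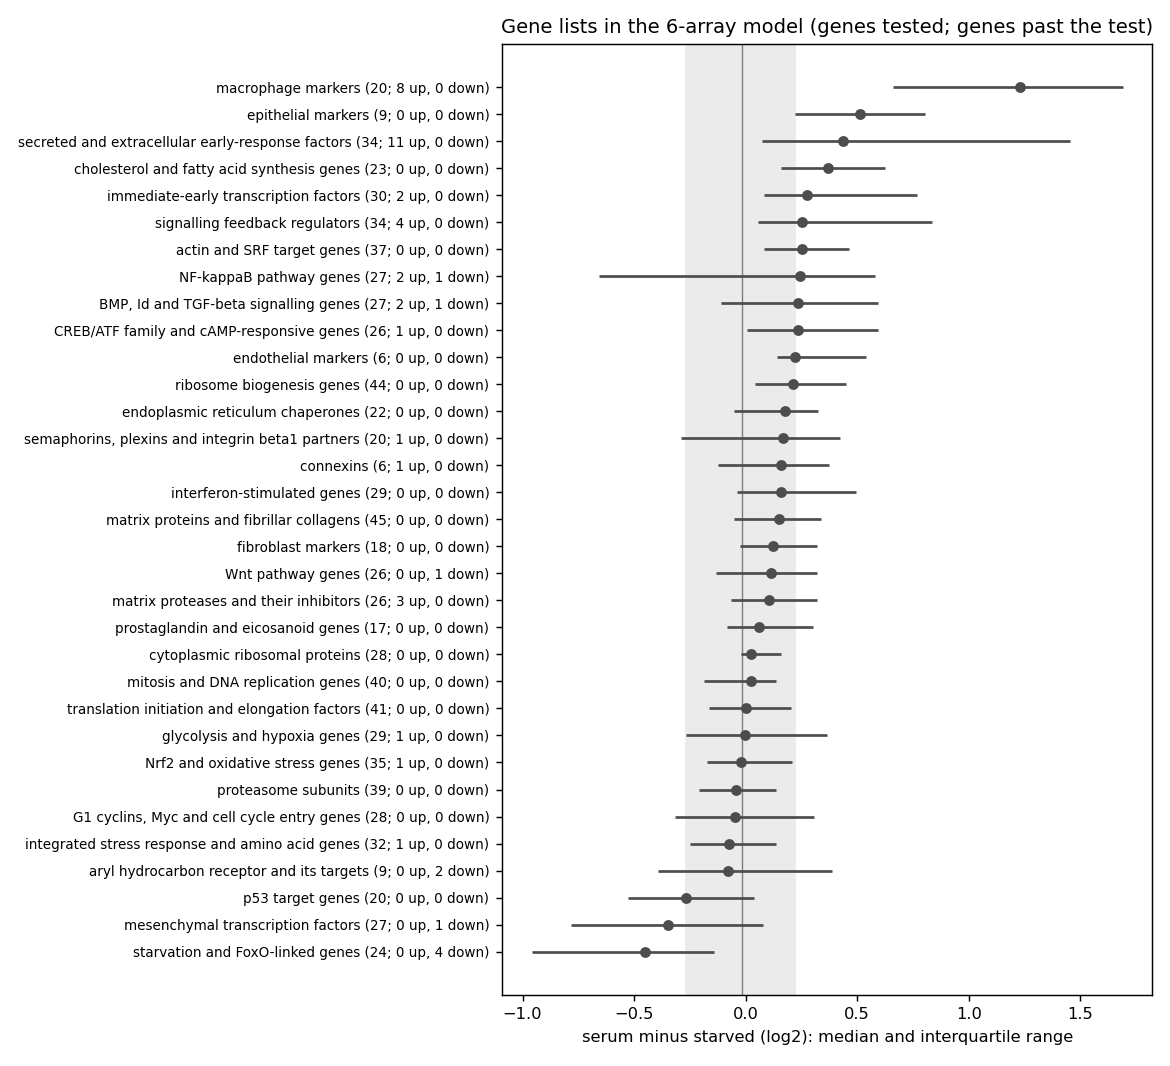
Median (point) and interquartile range (line) of the serum minus starved log2 difference in each list, with the number of genes tested and called beside its name; the grey band is the interquartile range over all named genes tested, -0.27 to 0.22. Macrophage markers lie highest (median 1.23) and starvation and FoxO-linked genes lowest (-0.45), and most lists lie within the band.

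These list medians depend on the scaling. No scaling, median centring and control scaling differ by 1 shift common to all probe sets. Relative to the median of all probe sets, each list therefore stood alike under these. Macrophage markers were at 1.22 and the starvation list at -0.41. When arrays were set to a common level of the spiked-in hybridization controls, the median of all probe sets became -0.39, and of the lists with a positive median only the secreted factors (0.05), macrophage (0.83), epithelial (0.20) and erythroid (0.06) lists stayed above 0. The starvation list was at -0.80 and the mesenchymal factors at -0.75 on that scale, both below the overall median. The share of rises among the calls moved likewise: 75% after quantile normalization, 62.3% without scaling (48 rises and 29 falls), 71.4% with median centring and 28.8% with the control scaling (19 rises and 47 falls). All 72 called genes kept their direction under each of these scalings.

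In polyribosome RNA taken alone, 6 probe sets passed (0.0644%), all rises: Serpinb2, Laptm5, Sema7a, Fgl2, Rasd1 and 1 without a single symbol; 575 had an unadjusted p under 0.05. The polyribosome differences were 3.32 for Serpinb2, 3.21 for Laptm5, 3.16 for Sema7a, 2.73 for Fgl2 and 2.27 for Rasd1. With the replicate block 211 passed (136 rises and 75 falls), with 1 residual degree of freedom. Without serum polyribosome replicate 1 or replicate 2 no probe set passed (564 and 511 at unadjusted p under 0.05), without starved replicate 1 there were 6, and without starved replicate 2 there were 9.

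The cytoplasmic pair has 1 array a side and no test. There, 731 probe sets (7.85%) were at least 2-fold higher and 845 (9.07%) at least 2-fold lower with serum, 1576 in all (16.9%); with hybridization control scaling the split was 441 and 1118. The largest rises were Sema7a at 4.35, Adam8, a membrane protease, at 3.91, Il11 at 3.53, Ramp3, a receptor chaperone, at 3.45 and Serpinb2 at 3.45. The starved values of Sema7a, Adam8, Il11 and Ramp3 (7.4, 3.8, 4.4 and 1.9) were below that array's background of 8.2. The largest falls were Epha7 at -3.52, Hs3st1 at -3.26, Capg at -3.14, Bub1 at -3.13 and Dlx5 at -3.02, and each of these had a serum value of 2.5 or less. Ramp3 differed by 0.08 in the polyribosome mean, and Bub1 by 0.05 and Dlx5 by 0.02. A second Bub1 probe set gave -1.27 for cytoplasmic RNA and 0.38 for the polyribosome mean. Capg also had another probe set, above background on every array, which gave 0.72 for cytoplasmic RNA and 0.26 for the polyribosome mean. The Capg probe sets therefore disagree in sign, and its fall of -3.14 rests on the first alone. The median size of the difference over all tested probe sets was 0.42 in the cytoplasmic pair against 0.30 and 0.27 in the polyribosome pairs.

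**Figure D4:**
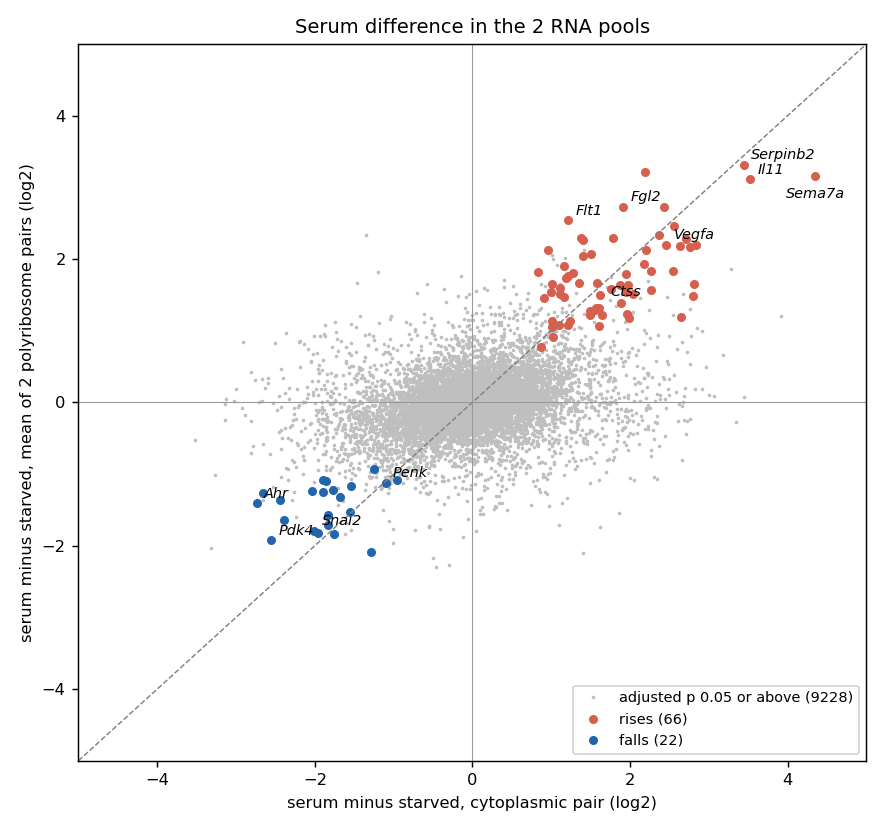
Serum minus starved log2 difference of each tested probe set for cytoplasmic RNA (horizontal) and for the mean of the polyribosome pairs (vertical); red and blue points are the 66 rises and 22 falls, and the dashed line marks equal differences. The called points lie in the upper right and lower left quadrants, and the grey points spread wider along the cytoplasmic axis.

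The serum response was compared between the pools by an interaction term. No probe set passed (limma; 561 had an unadjusted p under 0.05, smallest adjusted p = 0.767; with the replicate block none passed, 1129 at unadjusted p under 0.05, smallest adjusted p = 0.0636). The median standard error of this difference was 0.53 on the log2 scale. The polyribosome minus cytoplasmic response was -1.19 ± 0.56 for Sema7a (95% interval -2.50 to 0.11), -0.13 ± 0.50 for Serpinb2 (-1.29 to 1.03), -0.42 ± 0.71 for Il11 (-2.09 to 1.26) and 0.21 ± 0.57 for Snai2 (-1.13 to 1.55). Only 3 called probe sets had an interval within -1 to 1: Gadd45b, Penk and 1 without a single symbol. For Penk it was -0.78 to 0.73.

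Lowest in unadjusted p for a more positive difference on polyribosomes were Slc6a2, Entpd2 and Tyk2 (3.07, 2.90 and 2.75). For a more positive one in cytoplasm they were Slc35g3, Slc19a1 and Gm2a (-3.61, -2.47 and -2.30). Slc6a2, Entpd2 and Tyk2 gave -2.76, -2.43 and -2.41 in the cytoplasmic pair and 0.31, 0.47 and 0.35 in the polyribosome mean. Their serum cytoplasmic values (9.6, 13.4 and 6.5) were below that array's background of 13.8. The starved cytoplasmic values of Slc35g3, Slc19a1 and Gm2a (5, 4.4 and 8.1) were below the background of 8.2. All 6 had an adjusted p of 0.767 and rest on 1 cytoplasmic pair. Over the 66 rises the median difference was 1.63 for cytoplasmic RNA and 1.65 for the polyribosome mean; over the 22 falls it was -1.84 and -1.35. The cytoplasmic difference was the larger for 41 of 66 rises and 18 of 22 falls, as for 68.6% of all tested probe sets.

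How many genes passed depended on single arrays and on the variance model. Without a variance trend 8 probe sets passed, all rises, and with no filter on dim probe sets 24 did. Leaving out the starved or the serum cytoplasmic array left 6 and 5, fits that then rest on the polyribosome arrays. Leaving out starved polyribosome replicate 1 left 21, serum replicate 1 left 42 and serum replicate 2 left 18, while without starved replicate 2 there were 146. Of the 72 called genes, 4, 3, 16, 36, 14 and 68 passed in these fits, in the same order, and all 72 kept their direction in each. Serpinb2, Sema7a and Fgl2 passed in all 6, and Rgs16, Efhd2, Car2 and Map3k11 in none.

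**Figure D5:**
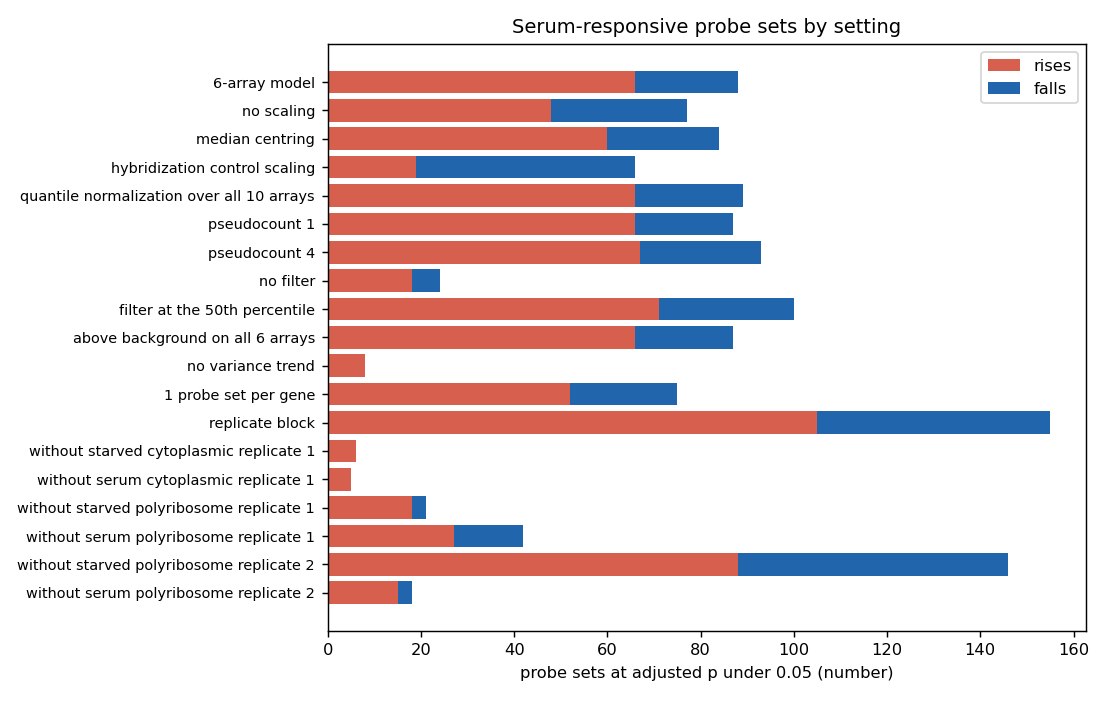
Number of probe sets past an adjusted p of 0.05 in the 6-array model and under each alternative, split into rises (red) and falls (blue). The count is 88 in the model as reported, 8 without a variance trend, 24 without a filter, 155 with the replicate block, and between 5 and 146 when 1 array is left out.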

How the data were processed

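Linearly amplified, biotin-labelled RNA was put on Affymetrix arrays, as the labels' protocols state. Each deposited value is a linear intensity of 1 probe set on 1 array; how probes were summarised, and whether arrays were scaled, is not given in the sources used here. Of 12488 probe sets, 66 are controls; of the others, 10833 have 1 gene symbol in the platform annotation, 396 several and 1193 none, and 10817 matched the reference by Entrez gene. Only probe sets with 1 symbol were named. Values were taken as log2(intensity + 1.5). The largest difference between 2 array medians was 1.44 log2 units, so the 6 arrays were quantile normalized, which gives the dim cytoplasmic and bright polyribosome arrays 1 distribution. A filter removed the dimmest probe sets (mean level up to the 25th percentile), leaving 9316.

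The serum effect was fitted with limma 3.58.1 in R 4.3.3 (lmFit, eBayes with a variance trend; RNA pool as a factor; two-sided; 3 residual degrees of freedom), after the script was tested on simulated data. The 4 polyribosome arrays, the interaction of serum and pool, and the cytoplasmic pair (no test, 2-fold) were treated separately; in the interaction the lone cytoplasmic arrays are taken to vary like the polyribosome replicates. Replicate number 2 marks thiouridine labelling in both polyribosome groups, so the numbers pair those arrays; deviations of same-numbered arrays correlated at 0.27. A gene not above background on a whole side is given as at least a fold, the bright side's mean against the dim side's floor (per array the higher of its own value and the lowest signal above background). The number of arrays limits the precision, and the variance of each probe set was moderated with 6.25 prior degrees of freedom from the others.

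Named were the 20 largest rises and 12 largest falls, other called genes by group, called list members, a set reported in any case, and the leading genes of the other comparisons. The arrays, gene lists, markers and motifs were chosen with earlier results of these data known. Alternatives were other scalings, pseudocounts, filters, a model without the variance trend, 1 probe set per gene, the replicate block and leaving out each array. Undertranslated arrays were not used.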

Additional observations from a re-analysis of the deposited data

How the results depend on the processing

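Against 88 calls in the 6-array model, 24 passed without the filter on dim probe sets, 8 without the variance trend and 155 with the replicate block; leaving out 1 array gave 5 to 146. The other scalings, pseudocounts and filters and the restriction to 1 probe set per gene gave 66 to 100 calls, and all 72 called genes kept their direction under every alternative in which they were tested. With arrays normalized over all 10 arrays, 89 passed and 87 were shared. The replicate block kept 71 of the 72 called genes and lost Map3k11. In polyribosome RNA alone (6 calls), 0 passed with hybridization control scaling, without the filter or without the variance trend (1131, 749 and 595 at unadjusted p under 0.05), 211 passed with the replicate block, and leaving out 1 array gave 0 to 9. The response difference between pools gave 0 calls under every alternative run, with 220 to 1129 at unadjusted p under 0.05. In the cytoplasmic pair (1576 past 2-fold), 3441 were past 1.5-fold and 550 past 3-fold; at 2-fold there were 2505 without the filter, 665 with the 50th percentile and 610 above background on all 6 arrays. Among genes that did not pass, signs reversed for Egr1 (0.0107 without scaling, 0.079 with median centring, -0.23 to 0.14 without 1 array), Dusp1 (-0.21 with hybridization control scaling, -0.0368 to 0.19 without 1 array), Ccl2 (-0.21) and Actb (-0.22), the last 2 with hybridization control scaling. The cause of these shifts was not tested, apart from fewer arrays in the fits that leave 1 out. Limits are 3 residual degrees of freedom, 1 cytoplasmic array a side, cycloheximide in 1 pool only, and dim probe sets: 55 of 66 rises and 16 of 22 falls were above background on all 6 arrays.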

Other observations

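Taking the replicate number as a block added 68 probe sets to the calls (limma, Benjamini-Hochberg adjustment), 39 rises and 29 falls, from 33 and 26 named genes; the genes below were chosen after their values were seen. Among the rises were Spred2, an inhibitor of the Ras pathway (1.76, adjusted p = 0.00393 with the block), Cd44, the hyaluronan receptor (1.46, 0.0283), and the transcription factor genes Runx1 (1.48, 0.0182), Klf10 (1.12, 0.0230) and Foxc2 (1.07, 0.0283). Gdnf, a neurotrophic factor, differed by 1.08 (0.0367), Hk2, a hexokinase, by 1.26 (0.0367) and the clock gene Arntl by 1.13 (0.0265). The falls included Tbl1xr1, a corepressor subunit (-1.65, 0.00829), Birc2, an inhibitor of apoptosis (-1.27, 0.0195), Bmi1, a Polycomb subunit (-1.23, 0.0380), Ptger4, a prostaglandin E2 receptor (-1.22, 0.0434), Ptch1, the hedgehog receptor (-1.15, 0.0477), and Ogt, which attaches N-acetylglucosamine to proteins (-1.20, 0.0477). Second probe sets of Birc2 and Ptch1 gave -0.12 and 0.12.

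Complement genes gave mixed readings between probe sets. C1qb was at 2.33 on 1 probe set (adjusted p = 0.0306 with the block; 1 of 3 starved arrays above background), and the brighter probe set used in the macrophage list gave 0.26 ± 0.35. C1qa was at 1.67 (adjusted p = 0.0414 with the block). The largest differences among probe sets without a single gene symbol were 2.63 and 2.49; their genes were not identified here.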
